A study of Mus musculus with 5 samples.

Results

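The loci of 9 transcription factor genes that act together after T cell activation were examined in naïve CD8+ T cells: Jun, Junb, Jund, Fos, Fosb and Fosl2, which encode AP-1 subunits, Batf and Batf3, which encode AP-1 proteins that bind next to interferon regulatory factors, and Irf4, which encodes such a factor. A DNase-seq peak was assigned to a gene when its summit lay in the gene body or within 50 kb on either side. This rule gave 71 of the 31116 peaks called in wild-type (WT) cells and 59 of the 25525 peaks called in cells lacking Tcf1 and Lef1 (dKO), or 130 of 56641 peaks in the 2 lists. Every mouse carried hCD2-Cre, a Cre transgene under human CD2 control that is most active in mature T cells, and a Rosa26 GFP reporter that Cre switches on. Tcf7, the gene for Tcf1, and Lef1 were intact in WT mice and had both alleles floxed in dKO mice. GFP+ TCRbeta+ CD62Lhi CD44lo-med CD8+ splenocytes were sorted in 3 WT and 2 dKO replicates. The controls therefore shared Cre and GFP with the dKO cells, and the selection for GFP restricted both groups to cells in which Cre had acted.

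AP-1 is a dimer of bZIP proteins, most often a Jun with a Fos, that binds the palindrome TGANTCA, where N is any base. Batf proteins pair with Jun proteins, and Irf4 binds composite elements beside such a dimer in activated T cells, where these factors drive effector genes. Fos and Junb are immediate early genes whose induction passes through CArG boxes bound by serum response factor. The comparison addressed whether loss of Tcf1 and Lef1 was accompanied by altered chromatin accessibility around these genes before activation.

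The replicates of each genotype were pooled before peak calling, so each site had 1 value per genotype, and no spread between replicates and no test between genotypes could be given. The pools held 83923734 WT and 62242963 dKO fragments. The measure of accessibility was the number of fragments over the summit, also given as FPM, fragments per 1000000 fragments of the pool. Intervals of 95% around these values were exact Poisson intervals, those of dKO/WT ratios were exact conditional intervals, and both cover counting error only. Fold enrichment over the local background was compared as a percentile within its own list, with 100 the highest. Peaks that met the study's criteria for a chromatin-accessible (ChrAcc) site, a fold enrichment of at least 4 with p under 1e-05 and q under 0.05, numbered 63 of 71 in WT and 55 of 59 in dKO cells. Over the whole lists, 28472 of 31116 WT peaks and 24363 of 25525 dKO peaks met them. Of 6 T cell and CD8 T cell marker genes, 5 had a promoter peak in WT and 4 in dKO cells, with Thy1 lacking one in both lists and Cd3d in dKO cells. Of 9 marker genes of B, myeloid, NK and CD4 T cells, Itgam alone had one, in WT cells only, at percentile 40.3. Whether these differences have a part in the results was not tested.

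Sequences of the mm9 genome are shown for the sites on which the results turn, each covering 100 bp on either side of the WT summit, or of the dKO summit at the dKO-only Batf site. Capitals mark CArG boxes at both Fos sites and Junb, a CRE (TGACGTCA) at Jund, AP-1 motifs at Fosl2 -32.1 kb, Batf -25.5 kb and Irf4 +43.3 kb, and the Tcf/Lef core ATCAAAG, on the minus strand, at Irf4 +11.2 kb. The Batf -23.6 kb site, the dKO-only site with the highest fold enrichment, and the Irf4 +37.1 kb site, the only site past a 2-fold change, held none of these motifs, and the capital there marks the summit base. Distances run from the annotated transcription start site (TSS) of the gene, negative upstream.
Fos promoter, chr12:86814447-86814647, plus strand: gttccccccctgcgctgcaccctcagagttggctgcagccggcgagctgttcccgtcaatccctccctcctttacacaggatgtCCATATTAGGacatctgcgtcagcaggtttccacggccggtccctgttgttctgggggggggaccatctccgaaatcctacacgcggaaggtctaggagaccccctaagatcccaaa
Fos +12.2 kb, chr12:86826949-86827149, plus strand: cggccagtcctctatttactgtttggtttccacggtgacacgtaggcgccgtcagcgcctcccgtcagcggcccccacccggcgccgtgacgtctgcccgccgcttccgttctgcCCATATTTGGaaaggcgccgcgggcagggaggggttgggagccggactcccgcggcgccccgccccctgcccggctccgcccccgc
Junb +2.04 kb, chr8:87500476-87500676, plus strand: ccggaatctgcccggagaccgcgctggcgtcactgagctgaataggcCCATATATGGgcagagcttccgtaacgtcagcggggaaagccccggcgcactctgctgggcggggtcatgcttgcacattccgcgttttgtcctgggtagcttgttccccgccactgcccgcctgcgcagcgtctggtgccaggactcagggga
Jund promoter, chr8:73222577-73222777, plus strand: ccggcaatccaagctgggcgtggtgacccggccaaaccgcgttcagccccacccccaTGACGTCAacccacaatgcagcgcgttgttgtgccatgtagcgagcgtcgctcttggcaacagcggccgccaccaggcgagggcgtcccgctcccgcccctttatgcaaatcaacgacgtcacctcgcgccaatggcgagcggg
Fosl2 -32.1 kb, chr5:32406597-32406797, plus strand: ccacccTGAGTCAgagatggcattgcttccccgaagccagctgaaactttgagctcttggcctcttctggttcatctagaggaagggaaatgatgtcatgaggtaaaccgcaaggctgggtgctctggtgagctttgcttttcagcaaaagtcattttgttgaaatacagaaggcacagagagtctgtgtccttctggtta
Batf -25.5 kb, chr12:87001983-87002183, plus strand: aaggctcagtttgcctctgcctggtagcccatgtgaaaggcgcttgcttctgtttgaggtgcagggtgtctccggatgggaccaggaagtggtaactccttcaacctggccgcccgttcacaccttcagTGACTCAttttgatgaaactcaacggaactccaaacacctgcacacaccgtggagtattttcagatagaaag
Batf -23.6 kb, chr12:87003938-87004138, plus strand: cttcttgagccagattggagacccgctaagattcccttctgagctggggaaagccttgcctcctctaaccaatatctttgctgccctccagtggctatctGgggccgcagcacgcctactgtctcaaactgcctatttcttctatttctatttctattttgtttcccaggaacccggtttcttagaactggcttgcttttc
Irf4 +11.2 kb, chr13:30852208-30852408, plus strand: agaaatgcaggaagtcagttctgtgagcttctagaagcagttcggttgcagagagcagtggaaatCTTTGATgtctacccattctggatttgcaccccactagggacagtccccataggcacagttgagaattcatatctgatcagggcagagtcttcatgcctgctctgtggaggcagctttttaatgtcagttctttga
Irf4 +37.1 kb, chr13:30878105-30878305, plus strand: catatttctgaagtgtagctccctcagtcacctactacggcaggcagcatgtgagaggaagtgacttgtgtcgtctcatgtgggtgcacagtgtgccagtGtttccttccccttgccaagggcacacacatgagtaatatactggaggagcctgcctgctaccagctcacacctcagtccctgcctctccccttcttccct
Irf4 +43.3 kb, chr13:30884247-30884447, plus strand: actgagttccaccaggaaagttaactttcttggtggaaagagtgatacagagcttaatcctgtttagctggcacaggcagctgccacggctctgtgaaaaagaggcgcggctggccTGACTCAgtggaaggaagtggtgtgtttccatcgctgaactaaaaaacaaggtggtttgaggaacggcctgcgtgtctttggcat

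The 130 peaks formed 77 sites, of which 50 were in both lists, 20 in the WT list only and 7 in the dKO list only. Sites were shared when their peaks overlapped by at least 1 bp. Among WT peaks at the loci, 28.2% (20 of 71, Wilson interval 19.0 to 39.5%) had no overlapping dKO peak, near the background of 30.1% over all WT peaks. Among dKO peaks at the loci, 11.9% (7 of 59, 5.87 to 22.5%) had no overlapping WT peak, again near the background of 14.0%. With the 20000 peaks of lowest p in each list, the order of these shares turned, to 17.4% of WT peaks (all 19.7%) and 20% of dKO peaks (all 18.9%). The full lists gave the same picture away from promoters. More than 1 kb from every TSS, 13 of 42 WT peaks (31.0%, background 37.1%) and 5 of 32 dKO peaks (15.6%, background 20.7%) were in 1 list only. Over the 9 loci as a group, the lists thus differed about as often as over the genome. A site outside a list is one where no peak passed the authors' threshold in that pool, and its fragments there are not known.

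**Figure D1:**
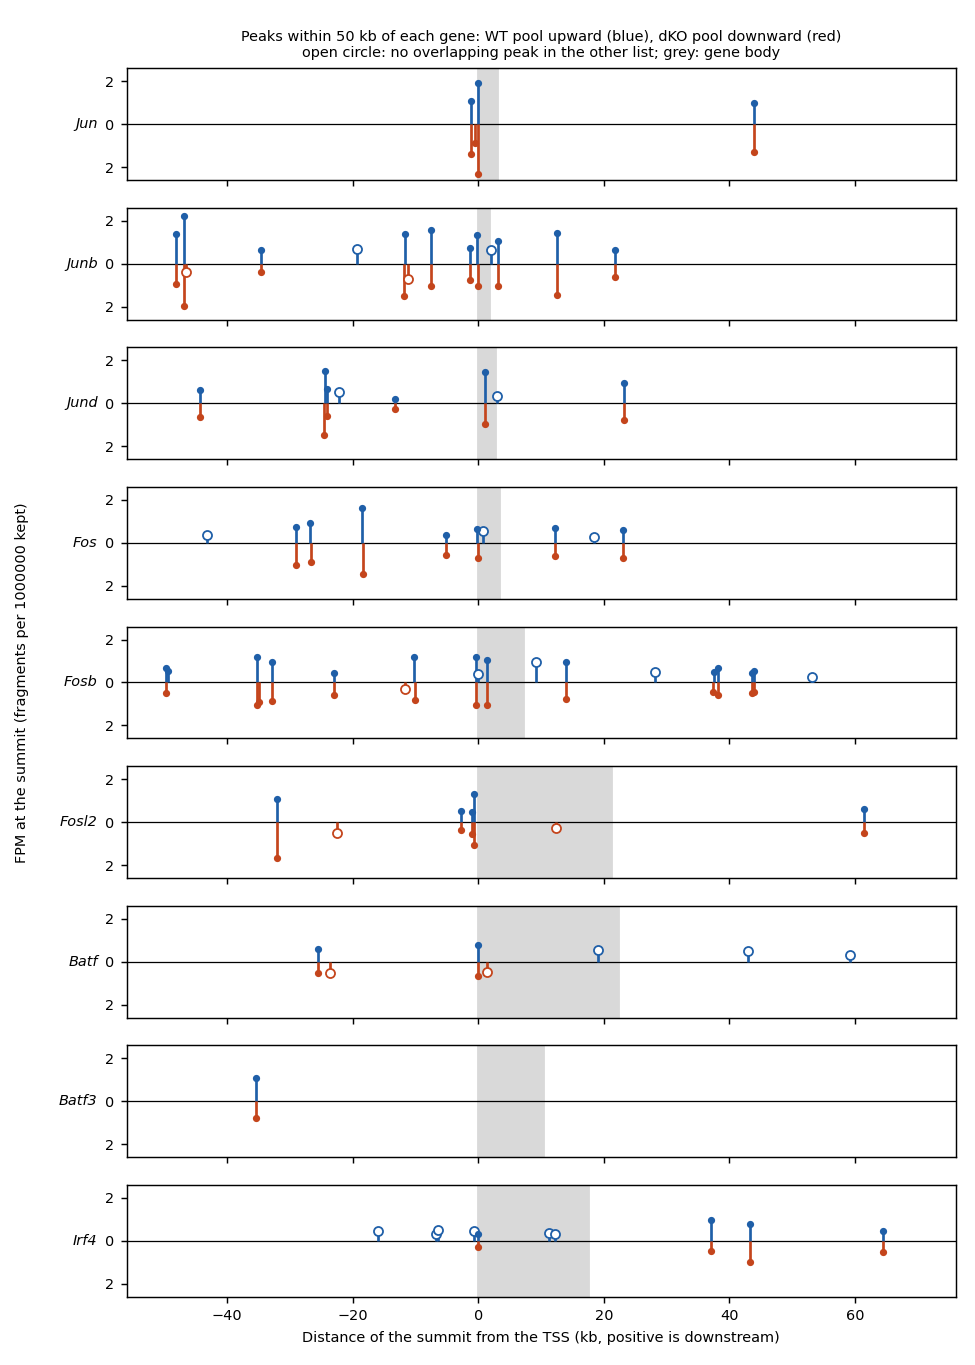
Peaks at the 9 loci by distance of the summit from the TSS in kb (x axis). Stem height is FPM, upward for the WT pool and downward for the dKO pool, open circles mark peaks with no overlapping peak in the other list, and grey marks the gene body. Irf4 shows 6 open WT circles between -16.0 and +12.2 kb, and Batf3 shows its single site at -35.5 kb.

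Single loci differed in how many sites they shared. The counts below stand beside genome shares of 30.1% of WT and 14.0% of dKO peaks with no overlapping peak in the other list. All 3 Jun sites were in both lists, and so was the single Batf3 site. Irf4 had 10 WT and 4 dKO peaks, and 6 of its WT peaks were WT-only. Without Irf4, 14 of 61 WT peaks (23.0%) had no dKO counterpart. At Batf, 3 of 5 WT peaks and 2 of 4 dKO peaks were in 1 list only, which left 2 shared sites. Fosl2 had 2 dKO-only and no WT-only peaks, whereas Fos had 3 WT-only and Jund 2 WT-only peaks and neither had a dKO-only peak. Junb had 2 of each kind, and Fosb, the locus with the most peaks (17 in WT, 14 in dKO), had 4 WT-only and 1 dKO-only. With at most 17 peaks a locus, and no replicate values, these counts are descriptions of the 2 lists.

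**Figure D2:**
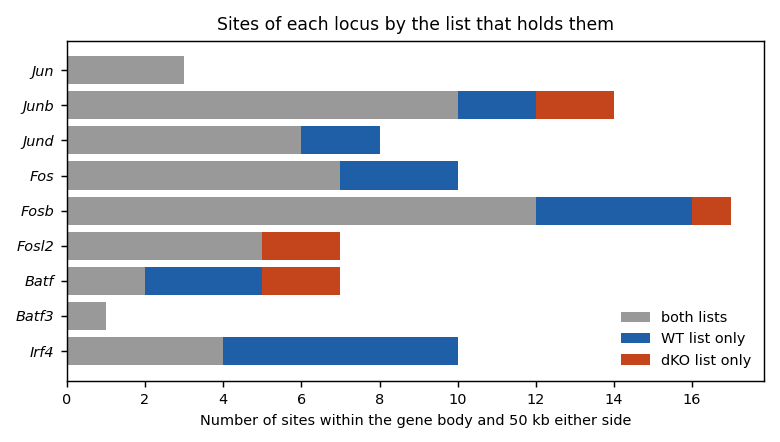
Number of sites (x axis) at each locus (y axis), with grey for sites in both lists, blue for those found in WT alone and red for those found in dKO alone. Irf4 has 6 WT-only sites among 10, and Fosl2 has 2 dKO-only and no WT-only sites.

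Over the 50 shared sites, the dKO/WT ratio of FPM had a median log2 of -0.12, against -0.13 over all 21606 shared sites of the genome. The ratio was under 1 at 31 of 50 sites (62.0%), where the background was 63.7%. No shared site at the loci was at least 2-fold higher in dKO cells (background 1.27%), and 1 was at least 2-fold lower (background 1.45%), at Irf4. The log2 ratios ran from -1.14 to 0.66. The interval of the ratio lay above 1 at 1 site, Fosl2 -32.1 kb, and below 1 at 6 sites, 3 of them at Junb and 1 each at Jund, Fosb and Irf4. The matching shares over all shared sites were not computed, and the median ratio over those sites was 0.916 rather than 1. Intervals at Junb -34.7 kb, Junb -48.1 kb and Fosb -10.2 kb included 0.916. Those at the 3 Jun sites, Fos -5.11 kb and Fos -29.1 kb lay above it. The percentile of fold enrichment was higher in dKO cells at 24 sites and lower at 26.

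**Figure D3:**
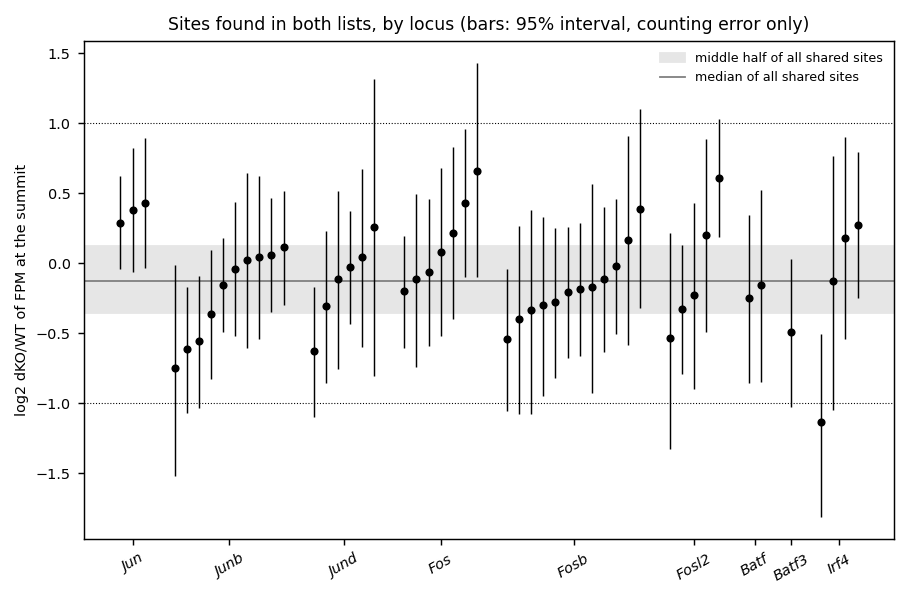
The log2 dKO/WT ratio of FPM at each of the 50 shared sites (y axis), grouped by locus, with 95% intervals for counting error only. Grey marks the middle 50% of all 21606 shared sites and dotted lines mark 2-fold. The Irf4 +37.1 kb site at -1.14 is the only one past a dotted line, and the 3 Jun sites lie at 0.29 to 0.43.

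Promoter peaks, with the summit within 1 kb of a TSS of the gene, were found for 8 of the 9 genes in both lists, Batf3 being the exception. Over all 22238 protein-coding genes, 46.0% had a promoter peak in WT and 42.3% in dKO cells. The strongest promoter peak of each gene ordered the genes from Jun (161 WT fragments, 1.92 FPM, interval 1.63 to 2.24) through Jund (1.47), Junb (1.32), Fosl2 (1.31), Fosb (1.17), Batf (0.763) and Fos (0.667) to Irf4 (0.441) in WT cells. Of the neighbours in that order, Jun and Jund, and Fosb and Batf, differed beyond counting error, and the others did not. In dKO cells Jun was again highest (146 fragments, 2.35 FPM, 1.98 to 2.76) and Irf4 lowest (19 fragments, 0.305 FPM, 0.184 to 0.477). The Irf4 values are not of one site, since the WT peak at -744 bp was WT-only, and the shared site near the TSS had 0.334 FPM in WT cells. Jun there exceeded Fosl2, the next gene at 1.04 FPM, and Batf exceeded Irf4 beyond counting error, whereas neighbours from Fosl2 down to Batf did not differ. These values are fragment coverage of a single base, so the size of the gene does not enter.

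**Figure D4:**
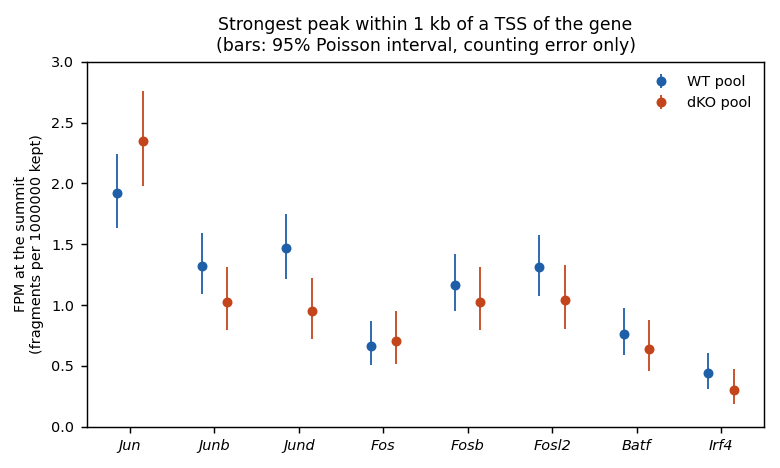
FPM (y axis) at the strongest promoter peak of 8 genes, in the WT pool (blue) and the dKO pool (red), with 95% Poisson intervals for counting error only. Jun is highest in both pools, at 1.92 and 2.35 FPM, and Irf4 lowest, at 0.441 and 0.305, although the Irf4 values belong to different sites, the WT-only peak at -744 bp and the shared peak near the TSS (0.334 FPM in WT). Batf3 had no promoter peak and is not plotted.

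Jun encodes c-Jun, the main partner of Fos proteins. The gene lies at chr4:94715725-94718913 on the minus strand, and its window was sparse, with 3 WT and 4 dKO peaks. The promoter site at -79 bp had 161 fragments in WT and 146 in dKO cells, a ratio of 1.22 (0.971 to 1.54), and went from percentile 62.8 to 75.8. The -1.15 kb site, which like the promoter site lay within 1 kb of the TSS of BC042782, had 90 and 87 fragments (ratio 1.30, 0.959 to 1.77). The distal +43.9 kb site, downstream of the gene, had 81 fragments in each pool, which at the smaller dKO depth gave a ratio of 1.35 (0.979 to 1.86). It went from percentile 89.8 to 95.7. All 3 sites had ratios above 1, and each interval reached just below 1.

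Junb encodes a Jun protein that is induced early and can restrain c-Jun activity. The gene lies at chr8:87500811-87502617 on the minus strand among many active promoters, with 12 peaks in each list. At the promoter site at -180 bp, 111 WT and 64 dKO fragments gave a ratio of 0.777 (0.562 to 1.07). The 3 shared upstream sites that follow had intervals below 1. The -7.51 kb site (chr8:87509755-87510352) had 132 and 64 fragments, a ratio of 0.654 (0.477 to 0.888), and went from percentile 71.0 to 47.2. At -34.7 kb, 52 and 23 fragments gave 0.596 (0.348 to 0.992), the second lowest ratio at the loci, and the percentile went from 65.2 to 23.4. At -48.1 kb, beside the TSS of 2310036O22Rik, 115 and 58 fragments gave 0.680 (0.487 to 0.940). The strongest peak of the window, at -46.9 kb at the Asna1 promoter, stayed near the top of both lists, with 186 and 124 fragments (percentiles 97.8 and 98.6).

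The Junb window also held the WT-only site of highest fold enrichment at the loci. This site at -19.4 kb (chr8:87521862-87522067) had 59 WT fragments, a fold enrichment of 11.2 and percentile 73.8. An equal level in dKO cells would correspond to 43.8 fragments, and 52.5% of dKO peaks had no more than that. The WT-only site at +2.04 kb, just downstream of the gene, held the CArG box shown above and was weak relative to its surroundings, with 53 fragments at percentile 1.98. It did not meet the ChrAcc criteria. The dKO-only sites at -46.6 kb (23 fragments, percentile 2.59) and -11.3 kb (43 fragments, percentile 24.3) lay beside stronger shared peaks at the Asna1 and Hook2 promoters, and the first did not meet the ChrAcc criteria.

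Jund encodes a Jun protein that is made widely in resting cells. The gene is annotated at chr8:73221638-73224515 on the plus strand. Its promoter site lay in the annotated exon 1, +1039 bp from the first TSS and -180 bp from another annotated TSS of the gene, and held the CRE shown above at chr8:73222634-73222641. It had 123 WT and 59 dKO fragments, a ratio of 0.647 (0.466 to 0.889), and went from percentile 63.1 to 42.6. The strongest distal site by fold enrichment in WT cells, at +23.2 kb, had 80 and 48 fragments (0.809, 0.554 to 1.17). In dKO cells the -24.4 kb site at the Lsm4 promoter ranked highest, with 125 and 91 fragments and a ratio of 0.982 (0.741 to 1.30). A WT-only ChrAcc site at -22.2 kb had 46 fragments and a fold enrichment of 4.11, and a WT-only peak at +3.01 kb near the Gm11175 TSS had 29 fragments and did not meet the ChrAcc criteria. The promoter site was the only Jund site whose interval lay apart from 1.

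Fos encodes c-Fos, which is nearly silent in resting cells and induced within minutes of stimulation. The gene lies at chr12:86814840-86818223 on the plus strand, and no peak in its window lay within 1 kb of another gene's TSS. The promoter site at -293 bp, with a CArG box at chr12:86814531-86814540, had 56 WT and 44 dKO fragments, a ratio of 1.06 (0.697 to 1.60), at percentiles 29.3 and 30.7. The second promoter peak, in intron 1 at +758 bp, was WT-only, with 47 fragments at percentile 22.3. An equal dKO level there would correspond to 34.9 fragments, and 36.8% of dKO peaks had no more. The other CArG box of the locus, at +12.2 kb, was in a shared site with 57 and 39 fragments (0.923, 0.598 to 1.41). Both promoter and downstream CArG sites thus had ratios whose intervals spanned 1.

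The distal Fos sites included 2 of the 5 shared sites with the largest increases at the loci. The -5.11 kb site had the highest ratio of all, 1.58, from 29 WT and 34 dKO fragments, and its interval of 0.935 to 2.69 included 1. It went from percentile 8.46 to 27.7. The -29.1 kb site had 63 fragments in each pool (ratio 1.35, 0.936 to 1.94) and went from percentile 35.9 to 58.0. The strongest site of the locus, at -18.6 kb, had 138 and 89 fragments (0.870, 0.659 to 1.14) and percentiles of 84.9 and 82.6. WT-only ChrAcc sites at -43.3 kb (32 fragments, percentile 31.9) and +18.4 kb (22 fragments, percentile 8.58) were shallow.

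Fosb encodes a Fos protein with several splice forms. The gene lies at chr7:19888070-19895394 on the minus strand, in a gene-dense window in which 7 of 17 WT and 5 of 14 dKO peaks lay within 1 kb of the TSS of another gene. The promoter site at -376 bp had 98 WT and 64 dKO fragments, a ratio of 0.880 (0.632 to 1.22). A second promoter peak at -43 bp was WT-only, with 34 fragments at percentile 2.68, and did not meet the ChrAcc criteria. In intron 1, the +1.39 kb site had 89 and 65 fragments (0.985, 0.704 to 1.37). The -10.2 kb site, the strongest of the window in WT cells by fold enrichment, had 100 and 51 fragments, a ratio of 0.688 (0.481 to 0.973). It was the only Fosb site with an interval below 1. The -22.9 kb site, the fifth largest increase at the loci, had 36 and 35 fragments (1.31, 0.799 to 2.15). In dKO cells the +14.0 kb site ranked highest, at percentile 70.7, with 80 and 49 fragments.

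The WT-only Fosb site at +9.22 kb (chr7:19886110-19886229), within 1 kb of the Gm17589 TSS, had the second highest fold enrichment among WT-only sites at the loci, 9.84 at percentile 65.0. It had 80 fragments, and an equal dKO level would correspond to 59.3 fragments, more than or equal to the pileup of 72.6% of dKO peaks. The other WT-only ChrAcc sites were at +28.2 kb near the Rtn2 TSS (41 fragments, percentile 40.8) and at +53.2 kb (21 fragments, percentile 9.58). The latter held a Tcf/Lef core. The dKO-only peak at -11.6 kb (19 fragments, percentile 1.67) held an AP-1 motif and did not meet the ChrAcc criteria.

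Fosl2 encodes Fra-2. The gene lies at chr5:32438845-32460204 on the plus strand. Its -32.1 kb site (chr5:32406585-32406928) had 91 WT and 103 dKO fragments although the dKO pool was the smaller, and the ratio of 1.53 (1.14 to 2.05) was the only one at the loci with an interval above 1. Its fold enrichment went from percentile 88.7 to 99.4, the highest rank of any member site in dKO cells. The ratio lay at percentile 95.4 among all shared sites. An AP-1 motif lay 91 bp upstream of the WT summit, outside the 100 bp searched around the dKO summit and near the left edge of the sequence shown above.

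The other shared Fosl2 sites had intervals that spanned 1. The promoter site at -712 bp had 110 and 65 fragments (0.797, 0.577 to 1.09), and the neighbouring -1.02 kb site 41 and 35 fragments (1.15, 0.712 to 1.85). At -2.71 kb, near the Gm10463 TSS, 45 and 23 fragments gave a ratio of 0.689 (0.398 to 1.16). A dKO-only site at -22.5 kb (chr5:32416237-32416411) had 32 fragments, a fold enrichment of 7.81 and percentile 46.0, and an equal WT level would correspond to 43.2 fragments, at or above 36.5% of WT peaks. The other dKO-only site, in intron 2 at +12.4 kb, had 17 fragments at percentile 7.43. At the far +61.5 kb site, 52 and 33 fragments gave 0.856 (0.536 to 1.35).

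Batf, which drives effector differentiation together with Irf4, lies at chr12:87027619-87050037 on the plus strand. Its promoter site, in exon 1 at +9 bp, had 64 WT and 40 dKO fragments, a ratio of 0.843 (0.553 to 1.27). The -25.5 kb site with the AP-1 motif shown above had 48 and 32 fragments (0.899, 0.556 to 1.44), at percentiles 47.9 and 46.0. The remaining sites were in 1 list each. In dKO cells only, the -23.6 kb site (chr12:87003983-87004177) had 33 fragments, a fold enrichment of 8.05 and percentile 48.4, and the intron 1 site at +1.36 kb had 31 fragments, a fold enrichment of 6.73 and percentile 34.8. Equal WT levels would correspond to 44.5 and 41.8 fragments, at or above 37.8% and 33.7% of WT peaks. In WT cells only, the intron 2 site at +19.0 kb had 46 fragments (percentile 48.5), the +42.9 kb site 42 fragments (fold enrichment 7.99, percentile 50.5) and the +59.2 kb site at the Mfsd7c TSS 26 fragments (percentile 20.5). The dKO-only Batf sites lay upstream and at the start of the gene, and the WT-only sites from intron 2 onward.

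Batf3, which supports the survival of CD8 T cells after activation and the development of cross-presenting dendritic cells, lies at chr1:192922293-192932822 on the plus strand. Neither list had a peak at its promoter or in its gene body. The single site of the window, at -35.5 kb, lay at the Nsl1 and Tatdn3 promoters and had 91 WT and 48 dKO fragments (0.711, 0.491 to 1.02). It went from percentile 92.0 to 71.1.

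Irf4, whose expression follows the strength of T cell receptor signalling, lies at chr13:30841095-30858796 on the plus strand, and no peak in its window was within 1 kb of another gene's TSS. Its strongest promoter peak had the lowest FPM of the 8 genes in both lists, although in WT cells it did not differ from that of Fos beyond counting error. The shared site at -63 bp had 28 WT and 19 dKO fragments (0.915, 0.483 to 1.70), at percentiles 4.70 and 3.01, and the stronger WT promoter peak, at -744 bp with 37 fragments and percentile 17.6, was WT-only. The other WT-only sites were at -16.0 kb (39 fragments, percentile 45.5), -6.74 kb (26, percentile 14.3), -6.42 kb (42, percentile 39.2), intron 7 at +11.2 kb (31, percentile 18.7) and exon 8 at +12.2 kb (28, percentile 14.5). All 6 were ChrAcc sites, and all were at or under percentile 45.5. The WT-only sites lay upstream, at the promoter and inside the gene, whereas the shared sites other than that at -63 bp lay downstream of it.

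Equal levels in dKO cells at the 6 WT-only Irf4 sites would correspond to 19.3 to 31.2 fragments, and between 6.32 and 30.6% of dKO peaks had pileups no higher. This was not particular to Irf4, since the 14 other WT-only sites at the loci ran from 1.11% at Fosb +53.2 kb to 72.6% at Fosb +9.22 kb. The intron 7 site held a Tcf/Lef core, at chr13:30852273-30852279.

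Downstream of Irf4, neighbouring distal sites had ratios on opposite sides of 1, although the interval of the higher ratio spanned 1. The +37.1 kb site (chr13:30878084-30878399) had 83 WT and 28 dKO fragments, a ratio of 0.455 (0.285 to 0.706), and went from percentile 75.6 to 36.1. It was the only site at the loci past 2-fold, and its ratio lay at percentile 0.819 among all shared sites. By fold enrichment over local background the dKO/WT ratio was 0.599, which is short of 2-fold. The +43.3 kb site had 68 and 61 fragments, a ratio of 1.21 (0.842 to 1.73), and went from percentile 63.0 to 78.2. It became the strongest site of the locus in dKO cells, and an AP-1 motif lay 19 bp from its WT summit. The +64.4 kb site had 38 and 32 fragments (1.14, 0.687 to 1.87). The interval of the +37.1 kb site did not overlap that of the +43.3 kb site.

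Motifs were searched on both strands within 100 bp of each summit, and a match says only that the letters are there. The AP-1 motif TGANTCA was found at 6 of 71 WT peaks of the loci (8.45%) and 3 of 59 dKO peaks (5.08%), compared with 6.22% and 6.40% of all peaks. Of the 6 WT peaks, 5 were at shared sites, Jund -13.2 kb, Fosl2 -32.1 kb and -712 bp, Batf -25.5 kb and Irf4 +43.3 kb, and 1 was WT-only, Batf +59.2 kb. Around dKO summits the motif was within 100 bp at 2 of these shared sites, Jund and Irf4, and at the dKO-only Fosb -11.6 kb peak. The Tcf/Lef core ATCAAAG was found at 2 of 71 WT peaks (2.82%, all WT peaks 3.88%) and 0 of 59 dKO peaks (all dKO peaks 2.44%). Both WT peaks, Irf4 +11.2 kb and Fosb +53.2 kb, were WT-only and shallow, with 31 and 21 fragments. The WT-only share among all WT peaks with the core was not computed. CArG boxes were at 4 of 71 WT peaks (5.63%, all 0.974%) and 3 of 59 dKO peaks (5.08%, all 0.976%), not all at the same sites. In WT cells they were at Fos -293 bp and +12.2 kb and at Junb -11.8 kb and +2.04 kb. In dKO cells they were at Fos +12.2 kb, Junb -11.8 kb and the Fosb promoter peak, whose dKO summit lay at -302 bp. The dKO summit of the Fos promoter peak lay at -2 bp, with the CArG box outside its window. The CRE was at Jund alone. No member peak held TTTC followed 4 bases later by TGANTCA, 1 form of composite of an IRF and an AP-1 element. This form contains the AP-1 motif and was in 0.0868% of all WT and 0.0823% of all dKO peaks. Composites with other spacings were not searched. No test was made of these counts.

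Other genes of the families were examined as a fixed list of 21 bZIP genes, such as the Atf and Maf genes, and 8 IRF genes. Promoter peaks were found for 26 of these 29 genes in WT and 23 in dKO cells, beside 46.0% and 42.3% of all protein-coding genes. At the 23 genes with both, the dKO/WT ratio of FPM had a median log2 of -0.27, against -0.13 over all shared sites. The backgrounds given here are of all shared sites, since none was computed over promoters alone. The log2 ratio was negative at 18 genes, where the background was 63.7%. No gene was at least 2-fold higher (background 1.27%) and 1 was at least 2-fold lower (background 1.45%). That gene was Irf8, a factor best known in myeloid and B cells, named after its values were seen, with 84 WT and 28 dKO fragments (log2 -1.15). All 6 IRF genes with both peaks had negative log2 ratios, from -1.15 to -0.08, a direction that 63.7% of all shared sites also had. Within 50 kb of the 29 genes, 48 of 182 WT peaks (26.4%) had no dKO peak and 8 of 146 dKO peaks (5.48%) had no WT peak, beside the genome shares of 30.1% and 14.0% given above.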

How the data were processed

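DNase-seq was analysed in naïve CD8+ splenic T cells of WT (3 replicates) and dKO (2 replicates) mice. Per the submitters' processing notes and the methods, the authors aligned reads to mm9 with Bowtie2 2.2.5, kept unique alignments, pooled the replicates of each genotype and called peaks on each pool with MACS2 2.1.1 without a control library. The pileup as deposited is a coverage signal, the unscaled number of fragments over the summit. The deposited fold enrichment is its ratio to the authors' local background, and the deposited -log10 p-value and -log10 q-value are the authors' MACS2 tests against that background. The headers name the same pooled alignment more than once and give 167847468 WT and 124485926 dKO fragments, of which 83923734 and 62242963 were kept, and the latter scaled the pileup. These totals set the precision of each value, and no replicate values were available to give a spread.

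Peaks were assigned to genes, TSSs, exons and introns with the gencode annotation of the mm9 assembly. Where several peaks formed a site, the highest pileup of each list was used, so the 2 summits need not be the same base. Python 3.11.15, pandas 2.3.3, scipy 1.17.1 and pysam 0.24.0 were used, and the overlap, interval and motif steps were checked on simulated data. All 9 genes were named, with their promoter sites, the strongest other site per list, ChrAcc sites found in 1 list and the 5 shared sites with the largest change in each direction. The genes and lists were chosen with earlier results of these data known. Alternatives changed the peak threshold, the overlap, the window, the loci included and the scaling. Motif letters are those of the reference genome.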

Additional observations from a re-analysis of the deposited data

How the results depend on the processing

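No paired analysis was possible because the files hold 1 pooled peak list per genotype, and for the same reason no replicate could be left out. The share of WT peaks with no dKO peak (28.2%) went to 17.4% (8 of 46) with the 20000 peaks of highest -log10 p in each list, where the dKO-only share went from 11.9 to 20% (10 of 50) and became the larger, beside 19.7% and 18.9% of all peaks. The WT-only share went to 57.1% (4 of 7) in gene bodies alone, where the dKO-only share was 50% (2 of 4) and the median log2 ratio -0.25 over 3 shared sites. The shares beside them, 30.1% of WT and 14% of dKO peaks, are over all peaks and not over gene bodies alone. The median log2 ratio of -0.12 turned to 0.01 when centred on all shared sites and to 0.04 with fold enrichment in place of pileup, so its sign rests on the scaling. The count of 1 site at least 2-fold lower became 0 in gene bodies, at a fold enrichment of at least 8, by fold enrichment and without the Irf4 locus, and 3 with a flank of 100 kb. Of these, only the measure by fold enrichment and the flank of 100 kb kept the Irf4 +37.1 kb site among the shared sites. The other settings left it out, which fixed their count of that site at 0. The count of 0 sites at least 2-fold higher stayed 0 under all 22 alternatives. Those that left out loci, narrowed the window, raised the peak threshold or dropped peaks near other genes could not raise it. No shared site had a log2 ratio above 0.66, so the count of 0 was fixed under those settings. The other alternatives left the shares and the median within their intervals. With motifs within 50 bp of the summit, 2 WT peaks held a CArG box (2.82%, all 0.488%) and 1 a Tcf/Lef core (1.41%, all 1.95%). No dKO peak held the CRE (all 1.64%). The cause of these changes was not tested. Depth limits the weaker sites, since at every shared site with under 40 dKO fragments the upper end of the ratio interval was more than 2 times the lower end. Some deeper sites had intervals as wide, such as Fosb -32.8 kb with 55 dKO fragments (0.645 to 1.32).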
